A study of Mus musculus and Rattus norvegicus with 28 samples.

Results

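The comparison described here is that of mouse cardiomyocyte RNA at postnatal day 7 (P7) with RNA at postnatal day 3 (P3). It rests on 4 RNA-seq libraries of the 28 samples in the series, 2 at each age, and on 13979 of the 55450 genes in the files. A gene was included when it reached an FPKM of 1 in at least 2 of the 8 mouse RNA libraries, FPKM being fragments scaled to transcript length and to the aligned fragments of the library, summed over the transcripts of a gene. The cells came from the left ventricles of wild-type C57BL/6 mice of both sexes, carried no transgene and received no treatment. The other mouse RNA libraries, 2 at embryonic day 18.5 (E18.5) and 2 at postnatal day 1 (P1), entered the fit and are quoted only as earlier levels. After digestion with trypsin and collagenase, the cells were left on plastic dishes so that non-muscle cells attached, and the cells remaining in suspension were taken as cardiomyocytes. The study calls the libraries of an age biological replicates. How many hearts went into a library, and whether those libraries came from separate litters, is not given in the sources used here. The p-values measure the spread between libraries of the same age, taken over the 8 mouse RNA libraries. The part of litters in that spread is not known. The ATAC-seq peak lists of the same ages, 2 libraries each, were used for promoters alone.

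In the first week after birth the ventricle of the mouse changes from growth by cell division to growth by enlargement, and its muscle cells lose most of their capacity to divide. Over the same period adult sarcomere isoforms replace fetal ones, mitochondria take over energy supply through fatty acid oxidation, and fibroblasts lay down collagen. Cells taken out of a tissue by enzymes also respond to the procedure, and chemokine and immediate early genes are among those known to be induced.

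The depth was 37.4 and 34.8 M aligned reads at P3 and 33.3 and 35.9 M at P7, so depth did not separate the ages. The Spearman correlation of FPKM across the tested genes, which are not independent replicates, was 0.983 within each age and 0.945 to 0.967 between ages. The cells were labelled as cardiomyocytes, and at P3 the defining transcripts were abundant in both libraries, with 16 cardiomyocyte markers summing to 9647 and 8383 FPKM. At P7 the same markers summed to 2398 and 1019.7 FPKM, while 12 fibroblast markers summed to 1857 and 1937 FPKM at P3 and to 3344 and 4146 FPKM at P7. At P7, therefore, the summed fibroblast markers stood above the summed cardiomyocyte markers in both libraries. The fibroblast markers did not rise evenly. Col3a1 went from 118 and 128 FPKM at P3 to 523 and 755 FPKM at P7, and Thy1, the only 1 of the 12 that was lower, from 59.7 and 67.5 FPKM to 56.5 and 53.3 FPKM. By staining for cardiac troponin T, the study reports high purity of its cells at P7 as well. It also names Pecam1 and Dcn as genes that cardiomyocytes do not express and reports their promoters as inaccessible. In the P3 and P7 peak lists, a peak lay within 2.5 kb of a start site of Dcn in 4 libraries and of Pecam1 in 3. The study showed signal at the locus, which is another measure. The P7 libraries also stood apart from each other, since all 16 cardiomyocyte markers were higher in replicate 1 than in replicate 2, by a median ratio of 2.41 (range 1.44 to 4.13), against a median of 1.10 between the P3 libraries. Housekeeping transcripts did not separate the P7 libraries in this way, with a median ratio of 1.01 over 14 genes.

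Between P3 and P7, all 10 thin filament genes, 9 of 11 thick filament genes and 11 of 15 calcium handling genes were called lower. In the other direction 11 of 15 chemokine, cytokine and acute phase genes, 6 of 18 collagens and 4 of 11 hypoxia response genes were called higher. Over all genes tested, 189 were called higher (1.35%) and 307 lower (2.20%) at P7, which is 3.55% in all. A gene was called when its limma adjusted p was below 0.05 and its P7 mean of log2(FPKM + 1) lay more than 1 away from its P3 mean, a difference given here as log2 fold change. The added 1 understates the change of genes with low FPKM. The called rises had a median log2 fold change of 1.38 and the called falls one of −1.57, against a median of −0.04 over all tested genes. Of the called genes, 179 higher and 290 lower were protein-coding, and the libraries of P3 and P7 did not overlap at any of the 496, although they also failed to overlap at 56.3% of all tested genes. Separate libraries were also a condition for naming a gene among the largest or most abundant changes. Where separation is stated for such a gene below, it describes the values and is not a further result.

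**Figure D1:**
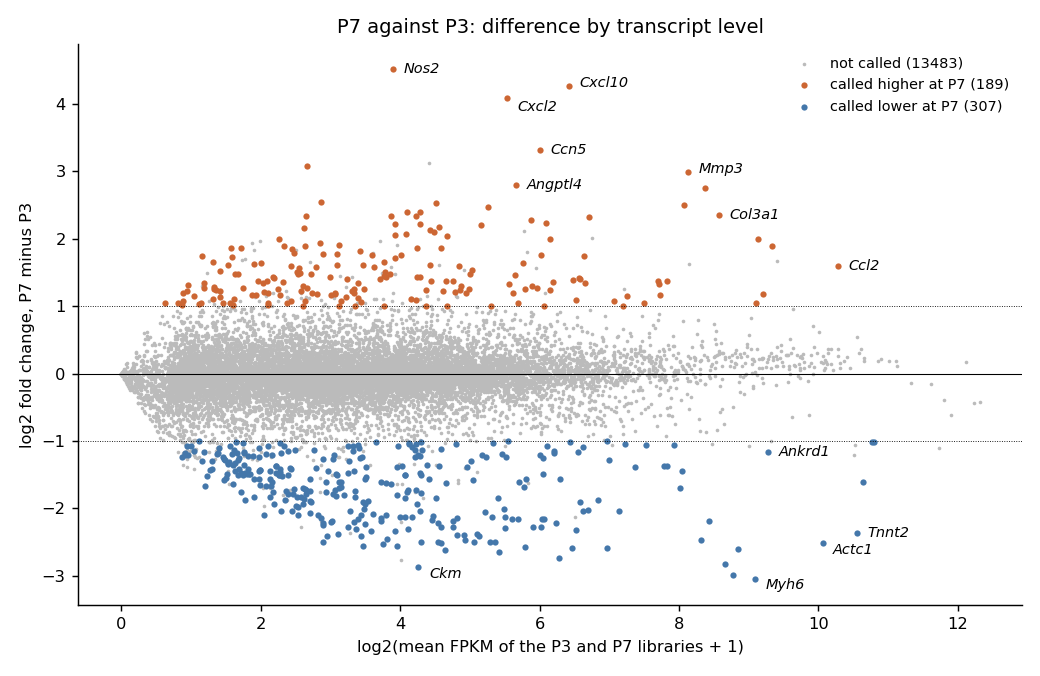
Each point is 1 of 13979 genes, with log2 of the mean FPKM of the 4 P3 and P7 libraries plus 1 on the horizontal axis and the log2 fold change of P7 minus P3 on the vertical axis; dotted lines mark 1 and −1. The called rises reach 4.51 for Nos2 and include abundant transcripts such as Ccl2, while the most abundant called falls include sarcomere transcripts such as Tnnt2, Actc1 and Myh6.

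The number of calls depended on single libraries, and the direction of the called genes did not. Without P3 replicate 1 the counts fell to 18 higher and 5 lower, without P3 replicate 2 to 22 and 4, and without P7 replicate 2 to 44 and 62, whereas 193 and 328 were called without P7 replicate 1. All 496 called genes kept the sign of their difference in each of these 4 fits. P7 replicate 2 lay further from P3 than replicate 1 at most called genes, being the lower of the P7 libraries at 298 of 307 genes called lower and the higher at 171 of 189 called higher.

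The sarcomere transcripts fell together. All 16 cardiomyocyte markers were called lower, against 2.20% of all tested genes, with a median log2 fold change of −2.41 and a range of −3.05 to −1.63. In these bulk libraries, fewer cells of a type and less RNA per cell cannot be told apart. The deepest fall among the called genes was that of Myh6, the fast alpha heavy chain of cardiac myosin that becomes dominant in the adult mouse ventricle. Its FPKM was 853 and 1062 at P3 and 190.3 and 68.5 at P7 (log2 fold change −3.05, SE 0.51, limma adjusted p = 0.0163), so that every P7 library was below every P3 library.

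Myl3, the ventricular essential light chain, had 929 and 590.2 FPKM at P3 and 189 and 45.7 FPKM at P7 (log2 fold change −2.98, SE 0.56, adjusted p = 0.0243). The regulatory light chain Myl2 stood at 900.2 and 650.5 FPKM at P3 and at 198 and 79.0 FPKM at P7. The groups were apart for both light chains, and replicate 1 was the higher library at each age. Myosin binding protein C (Mybpc3), which regulates the cross-bridges of the thick filament, was even at P3 with 218 and 204 FPKM and reached 53.9 and 21.6 FPKM at P7 (log2 fold change −2.59, SE 0.39, adjusted p = 0.0129). Of 11 tested members of the thick filament and M-band list, 9 were called lower, including titin (Ttn) and the myomesins Myom1 and Myom2. The remaining members were the atrial light chains Myl4 and Myl7, whose P3 and P7 libraries overlapped. Their log2 fold changes were −0.51 and −0.66.

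All 10 members of the thin filament list were called lower, with a median log2 fold change of −2.29. Tnnt2, the cardiac troponin T that ties troponin to tropomyosin, was at 2678 and 2299 FPKM at P3 and at 710.1 and 329.7 FPKM at P7 (log2 fold change −2.36, SE 0.34, adjusted p = 0.0117). Cardiac actin (Actc1) went from 1843 and 1753 FPKM to 457 and 217 FPKM, and the calcium-binding troponin C (Tnnc1) from 802 and 581 FPKM to 173 and 53.0 FPKM. These P7 levels were below every P3 level, and replicate 2 was the lower P7 library for each. Tropomyosin 1 (Tpm1), which non-muscle cells also express from other promoters, had 2621 and 2166 FPKM at P3 and 965 and 635 FPKM at P7. Its log2 fold change of −1.60 (SE 0.26, adjusted p = 0.0147) was smaller than the list median.

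Of 16 tested Z-disc genes, 13 were called lower. Actn2, the actinin that cross-links actin at the Z-disc, had 154 and 142 FPKM at P3 and 38.6 and 14.6 FPKM at P7. Ldb3 (also called Cypher), a Z-disc scaffold, was at 66.7 and 76.1 FPKM and then at 17.8 and 6.09 FPKM. Synpo2l, a cardiac actin-associated protein, went from 26.8 and 23.8 FPKM to 5.76 and 1.92 FPKM, and the small muscle protein Smpx from 109 and 74.8 FPKM to 24.7 and 8.19 FPKM. All 4 were among the 12 largest falls, with log2 fold changes between −2.64 and −2.56. Nexn, a filamin-like actin-binding protein of the Z-disc, fell with closer replicates, from 78.9 and 75.4 FPKM to 28.4 and 21.6 FPKM (log2 fold change −1.60, SE 0.16, adjusted p = 0.00562). The Z-disc members that did not pass were Flnc, Cryab and Xirp2, at −0.49, −0.52 and −0.63.

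**Figure D2:**
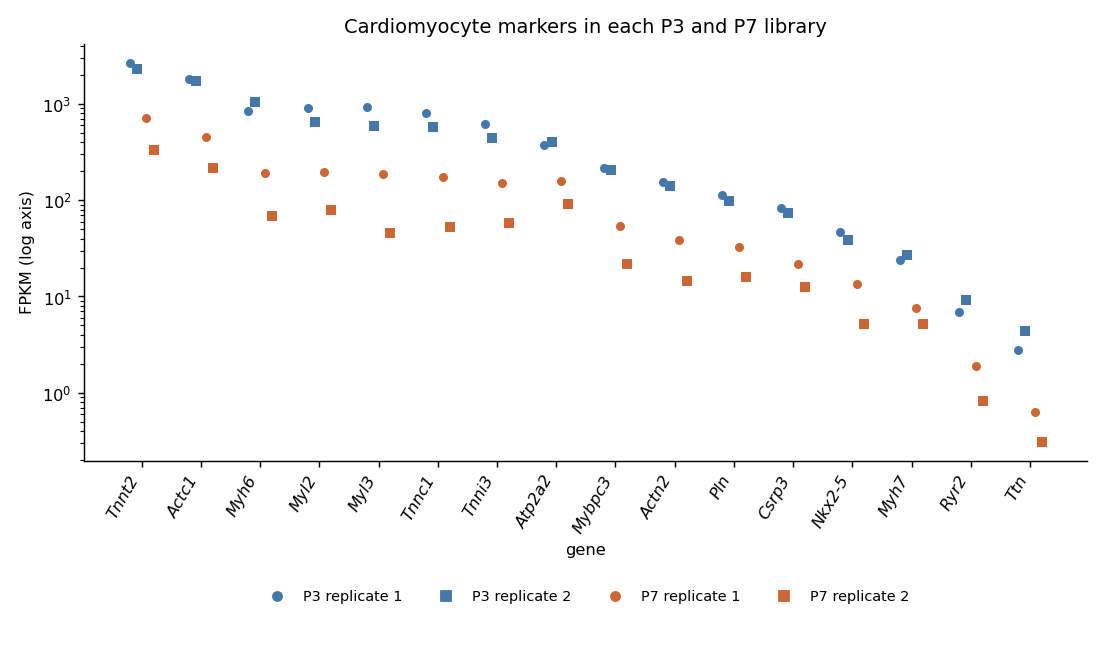
FPKM on a log axis of the 16 cardiomyocyte markers, ordered by their P3 mean, in P3 replicates 1 and 2 (blue circle and square) and P7 replicates 1 and 2 (orange circle and square). Both P7 points lie below both P3 points for every gene, and the replicate 2 square is the lowest point of each.

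With a P3 library left out, none of the 16 markers was called by limma, although 16 had an unadjusted p under 0.05 in either case. Their median log2 fold change was −2.24 without P3 replicate 1 and −2.50 without P3 replicate 2. Without P7 replicate 2 the median was −1.80 and 9 were called, and limma-voom on estimated reads called all 16. Every marker stayed below 0 in each of these fits.

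The consensus of MEF2, a family of factors that drive muscle genes, was searched on both strands in the 250 bases before each RefSeq start site. It was found in 1.66% of 12514 promoters of tested protein-coding genes and in 6.71% of 298 promoters of genes called lower, belonging to 19 of 221 genes. Mybpc3 and Synpo2l are shown because both were among the largest falls and each held a match, printed in capitals within the 250 bases before the start site on GRCm38.p6 (mm10). The Mybpc3 stretch is chr2:91117894-91118143 on the plus strand, with its match 90 to 81 bases before the start, and the Synpo2l stretch is chr14:20668355-20668604 on the minus strand, with its match 109 to 100 bases before the start.
Mybpc3: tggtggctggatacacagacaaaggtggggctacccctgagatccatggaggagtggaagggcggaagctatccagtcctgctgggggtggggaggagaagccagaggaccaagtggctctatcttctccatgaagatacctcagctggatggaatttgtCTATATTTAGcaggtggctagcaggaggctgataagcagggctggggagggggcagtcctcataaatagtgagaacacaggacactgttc
Synpo2l: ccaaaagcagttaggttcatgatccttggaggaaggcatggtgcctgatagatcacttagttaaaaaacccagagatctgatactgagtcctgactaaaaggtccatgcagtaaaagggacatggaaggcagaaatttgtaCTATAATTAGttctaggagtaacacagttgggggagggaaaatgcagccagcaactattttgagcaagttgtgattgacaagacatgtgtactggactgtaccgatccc
A match to a pattern is a description and not evidence of binding. No MEF2 factor was called, Mef2a standing at 14.3 and 14.8 FPKM at P3 and 9.66 and 9.83 FPKM at P7 (log2 fold change −0.53, SE 0.13, adjusted p = 0.0574). Mef2c and Mef2d stood at −0.59 and −0.40. Of 7 tested MEF2 and class IIa histone deacetylase genes, limma and limma-voom called none, and 3 and 4 had an unadjusted p under 0.05.

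Most genes of the calcium cycle and some ion channel genes fell. In the calcium list 11 of 15 members were called lower and none higher, with a median log2 fold change of −1.80. Atp2a2, the pump that returns calcium to the sarcoplasmic reticulum, had 374 and 404 FPKM at P3 and 158 and 91.2 FPKM at P7 (log2 fold change −1.69, SE 0.32, adjusted p = 0.0253). Its inhibitor phospholamban (Pln) had 114 and 99.1 FPKM at P3 and 32.7 and 16.1 FPKM at P7. The release channel Ryr2 and the calcium store protein Casq2 were also lower, with log2 fold changes of −1.96 and −1.85. Sarcalumenin (Srl), a calcium-binding protein of the reticulum, belonged to the 12 largest falls, at 41.0 and 42.2 FPKM and then 9.47 and 3.59 FPKM. The closest replicates were those of triadin (Trdn), which anchors the release channel, with 38.4 and 31.7 FPKM at P3 and 7.81 and 6.23 FPKM at P7 (log2 fold change −2.17, SE 0.20, adjusted p = 0.00397). Members outside the call included sarcolipin (Sln), another pump inhibitor, and Asph, whose log2 fold changes were 0.17 and 0.00 with overlapping libraries. The number called was 1 without P3 replicate 1, 1 without P3 replicate 2 and 3 without P7 replicate 2.

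Among 14 tested channel genes, 6 were called lower. They included the potassium channel genes Kcnj5, Kcnj11, Kcnq1, Kcnh2 and Kcnk3, at −1.83 to −1.45. Kcnh2, which carries a repolarizing current, had 21.5 and 20.2 FPKM at P3 and 7.83 and 4.66 FPKM at P7 (log2 fold change −1.63, SE 0.28, adjusted p = 0.0172). Without P3 replicate 1, P3 replicate 2 or P7 replicate 2, limma called none of the 14, and 9 had an unadjusted p under 0.05 in each. In the intercalated disc list 3 of 14 were called lower, namely the connexin Gja1, desmoplakin (Dsp) and plakophilin 2 (Pkp2), and all 14 had a negative log2 fold change.

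Trim72, a muscle protein of membrane repair, had 53.0 and 45.4 FPKM at P3 and 13.6 and 5.17 FPKM at P7 (log2 fold change −2.40, SE 0.43, adjusted p = 0.0207). Ankrd1, a stretch-responsive Z-disc protein and the only Z-disc gene among the 6 most abundant falls, had 791 and 909 FPKM at P3 and 471 and 305 FPKM at P7. Its log2 fold change was −1.16 (SE 0.20, adjusted p = 0.0183). Natriuretic peptide A (Nppa), a secreted hormone of the fetal and stressed heart, was not called. Its P3 replicate 1 held 1012 FPKM and replicate 2 held 407 FPKM, against 388 and 238 FPKM at P7. In the list of fetal isoforms, 3 of 8 were called lower, the slow heavy chain Myh7, skeletal actin (Acta1) and the slow troponin Tnni1.

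Of 13 cardiac transcription factors, 5 were called lower and all 13 had a log2 fold change below 0. Nkx2-5, which is required to form the ventricle, had 46.5 and 39.0 FPKM at P3 and 13.6 and 5.23 FPKM at P7 (log2 fold change −2.19, SE 0.36, adjusted p = 0.0155). Irx4, a factor restricted to ventricular muscle, had 6.66 and 5.04 FPKM and then 1.34 and 0.560 FPKM. Tbx5, Hand2 and Prox1 were the remaining calls, with Hand2 at 60.9 and 60.7 FPKM and then 37.0 and 24.1 FPKM. Gata4 and Tbx20, which other cells of the heart also express, had overlapping libraries and log2 fold changes of −0.02 and −0.19.

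Among energy genes, several calls were of muscle or heart isoforms, and most of these are given beside a general or other isoform of the same enzyme or subunit. The pairs were chosen after their values were seen. Muscle creatine kinase (Ckm), which regenerates ATP at the myofibril, had 39.5 and 24.8 FPKM at P3 and 6.89 and 1.5 FPKM at P7 (log2 fold change −2.87, SE 0.50, adjusted p = 0.0189). The brain isoform Ckb had 77.1 and 82.2 FPKM at P3 and 83.8 and 95.3 FPKM at P7, with a log2 fold change of 0.16 (adjusted p = 0.678). The difference between isoforms was not tested in this or the following pairs.

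Cox6a2, the striated muscle form of a cytochrome c oxidase subunit, had 153 and 109 FPKM at P3 and 36.3 and 9.12 FPKM at P7 (log2 fold change −2.74, SE 0.52, adjusted p = 0.0251). The general form Cox6a1 had 540.2 and 493 FPKM and then 447 and 401 FPKM, a log2 fold change of −0.28. Cox7a1 and Cox7a2 stood in the same order, at −2.13 and −0.49. Cox4i2, an isoform known to respond to low oxygen, was the single member of complexes III and IV called higher, from 4.90 and 4.89 FPKM to 11.5 and 14.3 FPKM (log2 fold change 1.23, SE 0.19, adjusted p = 0.0130).

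In glycolysis, 5 of 20 genes were called lower and 1 higher, while the median was 0.03. The 5 were the insulin-sensitive glucose transporter Slc2a4 and the muscle or heart forms Pfkm, Pgam2, Eno3 and Ldhb, at −2.32 to −1.12. The general forms Pgam1 and Eno1 stood at 0.59 and 0.40, and Ldha, another lactate dehydrogenase subunit, at 0.38. None of them was called, although Pgam1 passed the adjusted p alone (0.0397). No counterpart of Pfkm is given here. Slc2a1, the general glucose transporter, was called higher, with 48.5 and 48.0 FPKM at P3 and 118 and 139.7 FPKM at P7 (log2 fold change 1.39, SE 0.20, adjusted p = 0.0117). The 5 falls were all lost without P3 replicate 1 or P3 replicate 2 (5 with a negative difference at an unadjusted p under 0.05 in each fit), and 2 remained without P7 replicate 2.

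Most nuclear genes of the mitochondrion had negative log2 fold changes that were not called. The medians of these lists were smaller in size than the log2 fold change of 1 that a call required. Complex I had 36 of 36 members below 0 with a median of −0.59, and only Ndufa5 was called. All 15 ATP synthase genes were below 0, with a median of −0.61, and Atp5g1 was called. The citric acid cycle list had 2 calls of 18, Idh3a among them, with all members below 0, and fatty acid oxidation 2 of 20 (Cpt1b and Acadm) with 19 below 0. At an unadjusted p under 0.05 in limma, 30 complex I, 14 ATP synthase and 18 citric acid cycle genes were lower. In fatty acid oxidation 15 were lower and 1 higher at that limit. Cpt1b is the muscle form of the transferase that admits fatty acids to mitochondria, and had 20.2 and 30.2 FPKM at P3 and 10.1 and 4.22 FPKM at P7. Cpt1a, the general form, had 14.6 and 22.7 FPKM and then 27.0 and 29.2 FPKM, which was not called (log2 fold change 0.60, adjusted p = 0.211). Of the regulators, Ppargc1a, a coactivator that promotes mitochondrial genes, was called lower, from 2.81 and 3.61 FPKM to 0.666 and 0.224 FPKM, as was its muscle target Perm1. For comparison, 78 mitochondrial ribosomal protein genes had a median of −0.18 and 74 cytosolic ones a median of 0.21, with no call in either by limma or limma-voom; 13 and 10 had an unadjusted p under 0.05 in limma. The 37 genes of the mitochondrial chromosome were listed at 0 in every library.

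**Figure D3:**
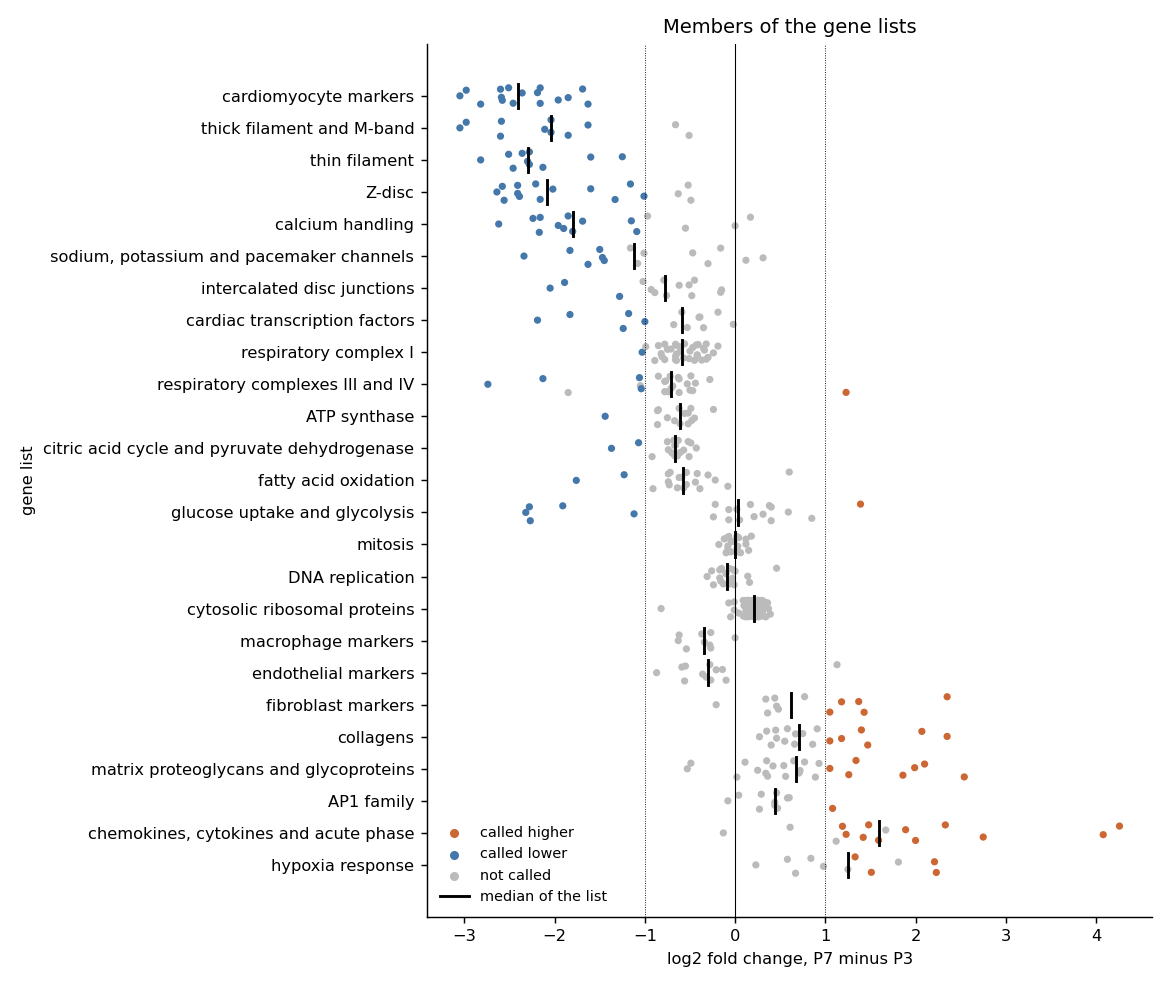
Log2 fold change of P7 minus P3 (horizontal axis) for every tested member of 25 gene lists, 1 list per line; orange and blue points are members called higher and lower, gray points were not called, and the black bar is the median of the list. The medians of the filament, Z-disc and calcium lists lie to the left of −1, those of the mitochondrial lists between −1 and 0, and those of the chemokine and hypoxia lists to the right of 1.

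Most chemokine and cytokine transcripts rose, and Cxcl10, Cxcl2 and Cxcl1 were among the 12 largest rises. In the list of chemokines, cytokines and acute phase genes, 11 of 15 tested members were called higher and none lower, against 1.35% of all tested genes, with a median of 1.59. Nos2, the inducible nitric oxide synthase, which is outside that list, rose most among the called genes. It had 0.0956 and 0.396 FPKM at P3 and 21.9 and 33.4 FPKM at P7 (log2 fold change 4.51, SE 0.25, adjusted p = 0.000581). Cxcl10, an interferon-induced chemokine for T cells, had 7.95 and 6.08 FPKM at P3 and 104 and 219 FPKM at P7 (log2 fold change 4.26, SE 0.39, adjusted p = 0.00397). Cxcl2, a neutrophil chemokine, had 3.99 and 4.11 FPKM at P3 and 69.3 and 103 FPKM at P7 (log2 fold change 4.08, SE 0.20, adjusted p = 0.000498). For all 3 genes the P7 libraries were far above the P3 libraries, a separation that the naming rule required. Nos2 and Cxcl2 were called in every alternative tried, and Cxcl10 in 12 of 13.

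The related neutrophil chemokines Cxcl1 and Cxcl5 were already transcribed at P3. Cxcl1 had 66.2 and 107 FPKM at P3 and 507 and 644 FPKM at P7, and Cxcl5 had 201 and 245 FPKM and then 763 and 1032 FPKM. The monocyte chemokine Ccl2 was the most abundant gene called higher, with 655 and 585 FPKM at P3 and 1735 and 2010.5 FPKM at P7 (log2 fold change 1.59, SE 0.20, adjusted p = 0.0105). Its neighbour Ccl7 had 288 and 258 FPKM and then 914 and 1121 FPKM. In each of these chemokines the P3 and P7 libraries were separate, and the P7 replicates lay closer to each other than to either P3 library. The same held for Il6, with 15.7 and 15.8 FPKM at P3 and 38.8 and 53.6 FPKM at P7. Csf2, a growth factor for granulocytes and macrophages outside the list, rose from 0.401 and 0.252 FPKM to 8.14 and 12.8 FPKM (log2 fold change 3.08, SE 0.25, adjusted p = 0.00290). Saa3, an acute phase protein, did not pass with 352 and 288 FPKM at P3 and 1228 and 839 FPKM at P7 (log2 fold change 1.67, SE 0.41, adjusted p = 0.0591). Cxcl12, a chemokine of tissue homeostasis, had overlapping libraries and a log2 fold change of −0.13. Without P3 replicate 1 the list had 2 members called, without P3 replicate 2 it had 3, and without P7 replicate 2 it had 5, with 14 of 15 above 0 in each.

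Markers of leukocytes were not called beside the chemokines. Of 9 tested macrophage markers none was called by limma or limma-voom, 8 were below 0, and 3 had an unadjusted p under 0.05 in limma. Their summed level was 194 and 156 FPKM at P3 and 134 and 113 FPKM at P7. Lymphocyte and neutrophil markers summed to 57.0 and 8.68 FPKM at P3 and to 2.52 and 4.0 FPKM at P7, the highest value being that of P3 replicate 1, in which S100a9 held 30.3 FPKM. Of 12 such markers, 5 were not tested for low level, among them the T cell gene Cd3e and the B cell gene Ms4a1.

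Few immediate early and AP1 genes were called, although most had a log2 fold change above 0. In the AP1 family 10 of 11 were above 0, with a median of 0.44, and 2 had an unadjusted p under 0.05 in limma. Over all tested genes 1.35% were called higher. Junb, a subunit of the AP1 factor, was the only called member of 11, with 73.5 and 97.9 FPKM at P3 and 164 and 198 FPKM at P7 (log2 fold change 1.08, SE 0.18, adjusted p = 0.0157). Fos had 5.22 and 6.95 FPKM at P3 and 7.61 and 9.56 FPKM at P7, and Atf3 8.14 and 6.78 FPKM and then 11.8 FPKM in both libraries. Neither was called (log2 fold changes 0.44 and 0.60). Of 16 immediate early genes outside AP1, Ier3 alone was called, at 117 and 135 FPKM and then 299 and 354 FPKM. In that list 14 were above 0, with a median of 0.20. At an unadjusted p under 0.05 in limma, 4 were higher and 1 lower. Among interferon and antigen presentation genes limma called none of 16, limma-voom called 1, and 7 had an unadjusted p under 0.05.

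Promoter patterns of the inducible genes are shown for Cxcl2, Cxcl10 and Mmp3, which were among the 12 largest rises. Each of these promoters held a match, so they do not stand for the genes called higher as a whole. The patterns were AP1 (TGAGTCA or TGACTCA), the interferon-stimulated response element (GAAA, any 2 bases, GAAA) and the NF-kappaB consensus, each on both strands, and in 2 of the 12514 promoters matches to different patterns overlapped. AP1 matches were present in 3.30% of all promoters and in 12.3% of 154 promoters of genes called higher. The NF-kappaB consensus was present in 9.09% and 16.2%, and the interferon element in 2.58% and 5.84%. The windows are chr5:90903649-90903898 (plus strand) for Cxcl2, chr5:92348890-92349139 (minus strand) for Cxcl10 and chr9:7445572-7445821 (plus strand) for Mmp3, all RefSeq starts on GRCm38.p6.
Cxcl2: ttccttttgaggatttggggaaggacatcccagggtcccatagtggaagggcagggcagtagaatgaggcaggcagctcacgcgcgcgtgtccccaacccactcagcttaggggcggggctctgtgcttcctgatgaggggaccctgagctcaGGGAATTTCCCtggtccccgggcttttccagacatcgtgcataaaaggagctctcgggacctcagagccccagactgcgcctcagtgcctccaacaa
Cxcl10: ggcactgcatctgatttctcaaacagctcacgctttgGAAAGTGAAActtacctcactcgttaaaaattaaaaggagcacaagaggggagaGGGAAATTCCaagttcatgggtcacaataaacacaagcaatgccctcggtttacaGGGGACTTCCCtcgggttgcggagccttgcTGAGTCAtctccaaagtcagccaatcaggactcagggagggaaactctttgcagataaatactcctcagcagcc
Mmp3: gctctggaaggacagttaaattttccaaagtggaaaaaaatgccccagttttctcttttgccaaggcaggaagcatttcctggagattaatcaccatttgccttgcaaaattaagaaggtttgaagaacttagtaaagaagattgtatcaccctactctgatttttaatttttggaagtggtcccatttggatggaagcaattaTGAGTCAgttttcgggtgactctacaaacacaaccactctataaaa
Capitals mark the matches. In Cxcl2 they are overlapping NF-kappaB matches from 97 to 87 bases before the start. In Cxcl10 they are, from left to right, the interferon element at 213 to 204, an NF-kappaB match at 159 to 150, overlapping NF-kappaB matches at 104 to 94 and AP1 at 74 to 68. In Mmp3 the match is AP1, at 46 to 40. Genes called lower had the AP1 pattern in 3.69% of promoters, near the share over all promoters.

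Some transcripts that respond to low oxygen were called higher at P7. All 11 tested members of the hypoxia list had a log2 fold change above 0, with a median of 1.25, and 4 were called. Egln3, the prolyl hydroxylase that marks hypoxia-inducible factors for destruction, had 21.0 and 24.9 FPKM at P3 and 94.8 and 129 FPKM at P7 (log2 fold change 2.23, SE 0.46, adjusted p = 0.0354). Ndrg1, a stress-responsive gene, had 11.8 and 11.5 FPKM and then 48.8 and 67.5 FPKM (log2 fold change 2.21, SE 0.30, adjusted p = 0.0109). The other calls were the vasodilator peptide Adm and Ankrd37. All P7 libraries lay above all P3 libraries for these genes. Vegfa, the endothelial growth factor, had 36.4 and 44.2 FPKM at P3 and 81.9 and 114 FPKM at P7 and was not called (log2 fold change 1.25, SE 0.31, adjusted p = 0.0599).

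Angptl4 and Hilpda, which both restrain lipases, were among the 12 largest rises. Angptl4 had 6.29 and 20.4 FPKM at P3 and 75.1 and 97.3 FPKM at P7 (log2 fold change 2.79, SE 0.53, adjusted p = 0.0253), and was called in 7 of 13 alternatives. Hilpda had 10.8 and 9.79 FPKM and then 46.1 and 82.4 FPKM (log2 fold change 2.47, SE 0.37, adjusted p = 0.0127). With P3 replicate 1, P3 replicate 2 or P7 replicate 2 left out, limma called no member of the hypoxia list, while 7, 8 and 8 members had an unadjusted p under 0.05.

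**Figure D4:**
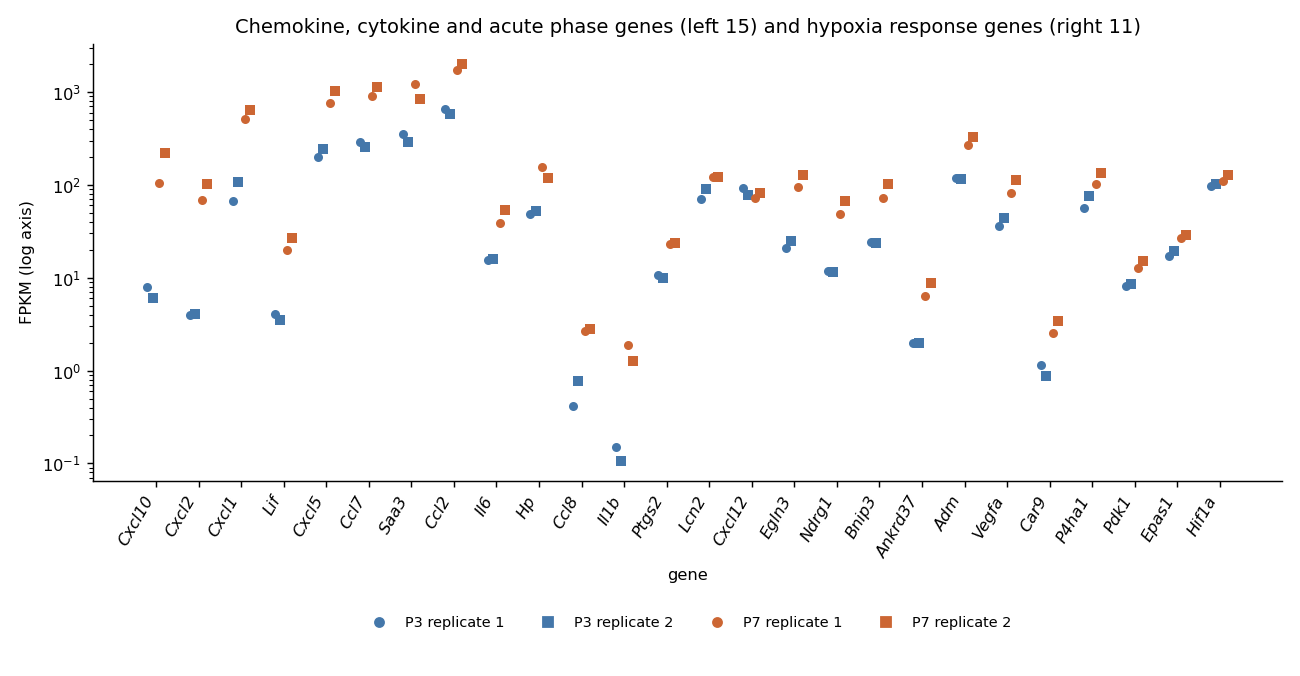
FPKM on a log axis of the 15 tested chemokine, cytokine and acute phase genes and the 11 hypoxia response genes, each ordered by log2 fold change, in P3 (blue) and P7 (orange) replicates 1 (circle) and 2 (square). Both P7 points lie above both P3 points for all but Cxcl12; the P3 points of Cxcl2 lie near 4 FPKM and its P7 points at 69.3 and 103 FPKM.

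A part of the matrix genes was called higher as well. All 18 collagen genes had a log2 fold change above 0, with a median of 0.71, and 6 were called higher. Col3a1, a fibrillar collagen of distensible tissue, rose most, from 118 and 128 FPKM to 523 and 755 FPKM (log2 fold change 2.35, SE 0.22, adjusted p = 0.00440). The type I chains Col1a1 and Col1a2 were more abundant and rose less. Col1a1 had 354 and 365 FPKM at P3 and 719.8 and 917 FPKM at P7, and Col1a2 350.0 and 359 FPKM and then 651 and 834 FPKM, with log2 fold changes of 1.18 and 1.05. The P3 libraries were nearly equal for all 3 chains, and P7 replicate 2 was the highest library of each. The basement membrane chains Col4a1 and Col4a2 were at 0.35 and 0.27 and were not called. The count of collagens called was 1 without P3 replicate 1, 1 without P3 replicate 2, 1 without P7 replicate 2 and 8 without P7 replicate 1.

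Of 24 proteoglycan and glycoprotein genes, 7 were called higher and none lower, with a median of 0.68. They include elastin (Eln), the fibrillin Fbn1 and the cross-linking oxidase Lox. Mfap4, a microfibril protein of elastic fibres, had 1.28 and 0.972 FPKM at P3 and 9.65 and 13.2 FPKM at P7 (log2 fold change 2.54, SE 0.20, adjusted p = 0.00290). Eln had 32.7 and 22.5 FPKM and then 92.4 and 133 FPKM. Decorin (Dcn), an abundant fibroblast proteoglycan, had close replicates at 489 and 481 FPKM and then 626 and 617 FPKM, but its difference was small and was not called (log2 fold change 0.36, SE 0.10, adjusted p = 0.101). Only 1 member stayed called without P3 replicate 1, 1 without P3 replicate 2 and 2 without P7 replicate 2.

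Mmp3, the stromelysin that cleaves matrix proteins, had 58.8 and 62.7 FPKM at P3 and 403 and 594 FPKM at P7 (log2 fold change 2.99, SE 0.23, adjusted p = 0.00290). Most other proteases and inhibitors were not called, with Mmp2 at 0.38 and Timp3 at −0.43, and Adamts2, which processes procollagen, was the only other call of 15. Ccn5, a secreted matricellular protein, had 10.2 and 11.1 FPKM at P3 and 97.7 and 135 FPKM at P7 (log2 fold change 3.31, SE 0.24, adjusted p = 0.00290). Mmp3, Ccn5 and Mfap4 were called in all 13 alternatives.

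Beside these matrix genes, 5 of 12 fibroblast markers were called higher, 3 of them collagens. The fibroblast receptor Pdgfra had 33.9 and 37.3 FPKM at P3 and 47.0 and 51.9 FPKM at P7 (log2 fold change 0.46, adjusted p = 0.0904), and Tcf21, a fibroblast factor, had overlapping libraries. Of 10 smooth muscle and pericyte markers, Notch3 was called higher and Cspg4 lower, and the list summed to 1139 and 1302 FPKM at P3 and 1671 and 1879 FPKM at P7. None of 12 endothelial markers was called by limma or limma-voom, 11 were below 0 and 4 had an unadjusted p under 0.05, and their sum was 683 and 776 FPKM at P3 and 595 and 502 FPKM at P7. Among 10 epicardial markers only Aldh1a2, the retinoic acid synthetase, was called, from 30.7 and 36.8 FPKM to 148 and 200.1 FPKM (log2 fold change 2.32, SE 0.25, adjusted p = 0.00616), while Wt1 and Upk3b overlapped. Globins and other erythroid markers summed to 12 FPKM or less in each of the 4 P3 and P7 libraries, the 8 Schwann cell markers to 1.79 FPKM or less in the same libraries, and the adipocyte list had 1 tested gene, Fabp4, which was called higher and which endothelial cells also express. The part of these cell types in the differences was not tested.

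No difference was detected between P3 and P7 in genes of cell division. None of 20 mitosis genes or 20 DNA replication genes was called by limma or limma-voom, and none had an unadjusted p under 0.05 in either fit. Their log2 fold changes ranged from −0.18 to 0.18 for mitosis and from −0.31 to 0.46 for replication, with medians of 0.00 and −0.09. Stmn1, a microtubule regulator of dividing cells, had 107 and 90.8 FPKM at P3 and 97.6 and 85.5 FPKM at P7, and Hmgb2, a chromatin protein, 80.4 and 63.6 FPKM and then 70.8 and 67.7 FPKM. The libraries overlapped for both. Ccnd1 and the inhibitor Cdkn1a were at −0.77 and 0.66 and were not called either (adjusted p = 0.215 and 0.0861). Among growth factors, the imprinted genes H19 and Mest were called lower, with Mest at 207 and 149 FPKM at P3 and 62.2 and 35.6 FPKM at P7 (log2 fold change −1.88, SE 0.26, adjusted p = 0.0113), and the binding proteins Igfbp3 and Igfbp5 were called higher. Neither higher call of this list held with TPM, with a pseudocount of 0.1, with no expression filter or with any 1 library left out. The number called lower was 0 without P3 replicate 1, 0 without P3 replicate 2 and 1 without P7 replicate 2.

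Smaller lists added single calls. The complement factors C4b and Cfb were called higher of 10 tested, with Cfb, which amplifies the alternative pathway, at 5.92 and 3.93 FPKM at P3 and 20.9 and 25.8 FPKM at P7 (log2 fold change 2.05, SE 0.23, adjusted p = 0.00721). Selenbp1, a selenium-binding protein and the last of the 12 largest rises, had 4.80 and 5.44 FPKM and then 25.2 and 38.9 FPKM. Of 12 heat shock chaperones only Hspb6 and Hspb7 were called, both lower and both small chaperones enriched in striated muscle. Hspb7 was nearly equal in the P3 libraries, at 157 and 156 FPKM, and had 50.5 and 27.9 FPKM at P7. S100a1, a calcium sensor of heart muscle, was the only call among 9 S100 genes, from 112 and 88.6 FPKM to 52.8 and 37.3 FPKM. The fatty acid carrier of muscle, Fabp3, was called lower with 223 and 219 FPKM at P3 and 83.8 and 33.7 FPKM at P7. In the lists of YAP and TEAD genes, TGF beta genes and laminins, limma and limma-voom called none of 11, 16 and 10, and 1, 4 and 2 had an unadjusted p under 0.05 in limma. Irs2, Csf1 and Adamts1, which the study names beside mouse measurements, had log2 fold changes of 0.03, 0.03 and 0.06 with overlapping libraries.

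Set beside the earlier step from E18.5 to P1, with which it shares no library, the late rises held genes that had already risen and genes that had fallen. Both steps came from the same fit and share the estimate of spread of each gene, so their calls are not independent. A gene of small spread is easier to call in both, which the shares in this and the next paragraph do not correct for. Of the 189 genes called higher at P7, 34 had also been called higher at P1 against E18.5 (18%, against 10.1% of all tested genes) and 38 had been called lower (20.1%, against 6.06%). Mmp3 and Cxcl5 belonged to the former. Mmp3 went from 0.151 and 0.0649 FPKM at E18.5 to 18.6 and 12.5 FPKM at P1, and Cxcl5 from 4.47 and 2.43 FPKM to 182 and 103 FPKM. Cxcl10 and Cxcl2 belonged to the latter. Cxcl10 had 195 and 172 FPKM at E18.5, 6.28 and 13.7 FPKM at P1, and was back at 104 and 219 FPKM at P7, and Cxcl2 had 62.3 and 79.9 FPKM, then 4.78 and 4.94 FPKM, and 69.3 and 103 FPKM at P7. Eln, Mfap4, Aspn, Junb and Ndrg1 were likewise called lower at P1 and higher at P7.

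Of the 307 genes called lower at P7, 55 had been called lower at P1 (17.9%, against 6.06% of all tested genes). Another 34 had been called higher (11.1%), which is near the 10.1% of all tested genes. Ckm was in the first group, from 1215 and 1566 FPKM at E18.5 to 96.5 and 162 FPKM at P1. Ankrd1 and Trim72 were in the second. Ankrd1 had 471 and 497 FPKM at E18.5 and 1331 and 1179.9 FPKM at P1, and its P7 values of 471 and 305 FPKM were near or below those of E18.5. Trim72 stood at 18.8 and 9.82 FPKM at E18.5, 66.0 and 104 FPKM at P1 and 13.6 and 5.17 FPKM at P7. Myh6 had 1243 and 1548 FPKM at E18.5 and 1256 and 3047 FPKM at P1, so its P7 values were below those of every earlier library.

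**Figure D5:**
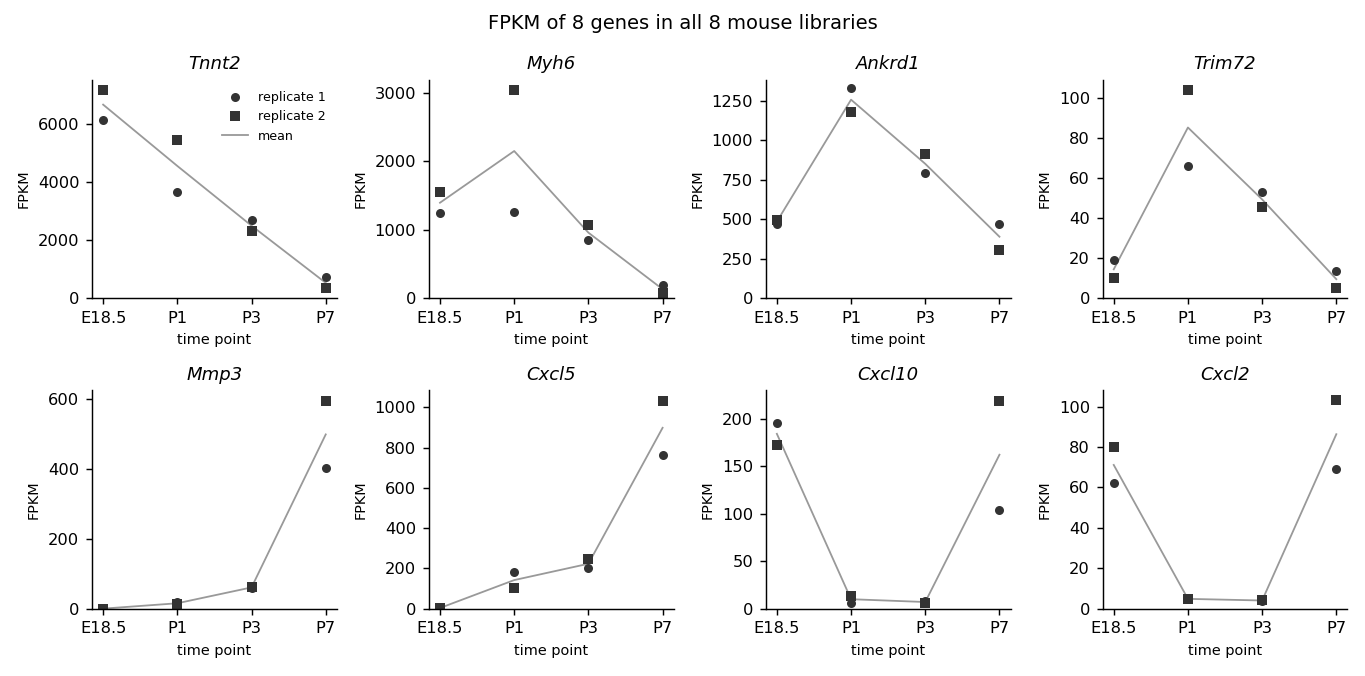
FPKM of 8 genes in all 8 mouse libraries by age (circles replicate 1, squares replicate 2, line the mean of 2), with the time points spaced evenly and a linear axis from 0 for each gene. Tnnt2 falls at each step, Ankrd1 and Trim72 are highest at P1, Mmp3 and Cxcl5 are highest at P7, and Cxcl10 and Cxcl2 are high at E18.5 and P7 and low between.

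Promoter peaks were read from the ATAC-seq lists, which mark accessible chromatin, as presence of a peak within 2.5 kb of a start site. The lists held 95257 and 52040 peaks at P3 and 49113 and 35898 at P7, so a peak could be missing because a list was short. Of all tested genes 82.5% had a peak in all 4 libraries, and the share was 56.1% of genes called higher and 60.9% of genes called lower. Nearly no called gene gained a promoter peak at P7, meaning a peak in both P7 and neither P3 library. The count was 0 of 189 called higher and 1 of 307 called lower (Mb, the oxygen store myoglobin, named after its value was seen), against 6 of all 13979. Loss in the opposite sense was seen at 12 genes called higher and 6 called lower (6.35% and 1.95%, against 1.02% of all). With every list shortened to its 35898 best peaks, gains became 5 (2.65%) and 15 (4.89%), against 1.55% of all. Losses became 1 (0.529%) and 1 (0.326%), against 0.222% of all. The direction of promoter change thus turned with list length, over all tested genes as well.

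Mmp3 and Csf2 rose at P7 and had no promoter peak in any of the 4 libraries. Cxcl2 and Serpinb2, a protease inhibitor of activated cells that rose from 4.93 and 6.12 FPKM to 26.7 and 49.8 FPKM, had a peak only in P3 replicate 1, the longest list. Cxcl10, Ccl2 and Tnnt2 had a peak in all 4 lists. Actc1, Mybpc3 and Synpo2l, whose RNA fell, had a promoter peak only in P7 replicate 2, the shortest list.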

How the data were processed

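RNA-seq was analysed from the authors' StringTie output. Per the labels and the study's methods, poly(A) RNA was prepared with a kit that does not mark strand and sequenced as 150 bp read pairs. The authors aligned the reads to mm10 with HISAT2 2.1.0 and quantified GENCODE vM21 transcripts with StringTie 1.3.5. The deposited files give FPKM per transcript, which the authors scaled to transcript length and library size. TPM, brought by the authors to the same total in each library, and unscaled coverage per base were deposited beside it. In the ATAC-seq peak lists deposited by the authors, the score is that of MACS2, called per library on mm10.

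The FPKM of a gene was summed over its transcripts. Dividing coverage by FPKM gave an estimate of each library's depth. Values of log2(FPKM + 1) were tested by limma 3.58.1 in R 4.3.3 (lmFit, contrasts.fit, eBayes with a trend), two-sided, over all 8 mouse libraries in 1 fit with 4 residual degrees of freedom. Adjusted p is Benjamini-Hochberg over 13979 genes. SE is that of the fitted difference. The study's test on read counts was not repeated, because the main values are FPKM. The fit was checked on simulated data.

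Named genes were 12 protein-coding genes in each direction, ranked by log2 fold change among called genes with separate libraries, then 6 in each direction ranked by FPKM, list members, and genes the study names beside mouse measurements. The members and lists were chosen with earlier results of these data known. A gene outside this rule is marked as chosen after its values were seen. The NF-kappaB and interferon patterns were chosen after expression values were seen, and promoter sequences are from RefSeq. Promoters of 9755 tested protein-coding genes were found there, and Nos2 had no entry. Alternatives were a pseudocount of 0.1, other filters, TPM, median-of-ratios scaling, limma-voom on reads estimated from coverage, a replicate block, a fit of only the 4 libraries, and each library left out. Rat, HiChIP and earlier ATAC-seq data were not used here. Results for some genes are not reported here.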

Additional observations from a re-analysis of the deposited data

How the results depend on the processing

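The counts of called genes were 189 higher and 307 lower. With no expression filter, which raised the genes tested to 31008, they were 13 and 2 (3414 at an unadjusted p under 0.05), and no cardiomyocyte marker, collagen or hypoxia gene and 1 chemokine gene was called. With a mean FPKM of at least 5, 117 higher and 268 lower were called among 8944 genes. With 1 library left out, the counts ranged from 18 to 193 higher and from 4 to 328 lower; for cardiomyocyte markers called lower from 0 to 16, for collagens called higher from 1 to 8, for the chemokine list from 2 to 9 and for the hypoxia list from 0 to 3. TPM (210 and 373), median-of-ratios size factors (195 and 283), a pseudocount of 0.1 (188 and 414), limma-voom (217 and 328), the fit of only 4 libraries (204 and 265) and a filter on the P3 and P7 libraries alone (195 and 321) stayed within 1.5 times. The share of calls that were higher was 38.1% and ranged among these from 31.2% to 43.5%. The 38 called genes named by rule kept their direction wherever they were tested. Among named genes that were not called, the sign of the log2 fold change turned without P3 replicate 1 for Stmn1, Hmgb2, Irs2, Csf1 and Adamts1 and without P7 replicate 1 for Csf1. With 1 library left out, the values ranged from −0.23 to 0.01 for Stmn1, from −0.21 to 0.12 for Hmgb2, from −0.0031 to 0.07 for Irs2, from −0.05 to 0.11 for Csf1 and from −0.01 to 0.13 for Adamts1. The cause was not tested. The share of genes with a promoter peak in all 4 libraries fell with equal list lengths from 82.5% to 71.6% of all tested genes, from 56.1% to 43.4% of genes called higher and from 60.9% to 40.7% of genes called lower.

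With the replicate number as a block, 184 genes were called higher and 263 lower, 437 of them shared with the fit without it. The labels do not say that the numbers pair the samples. The deviations of same-numbered libraries correlated at 0.116 between P3 and P7 and between −0.096 and 0.171 over the other pairs of ages. Such values across genes cannot exclude a shared litter or day. In the block, 5 hypoxia genes were called rather than 4.

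With 2 libraries per age, a library left out leaves a lone library whose spread is assumed to be that of the other ages, with 3 residual degrees of freedom. Depth was within 33.3 to 37.4 M reads and gives no limit that separates the ages.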

Other observations

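Other inflammatory genes outside the lists moved in the same direction as the chemokines; these were chosen after their values were seen. Tnf, a cytokine upstream of NF-kappaB, had 1.37 and 1.33 FPKM at P3 and 6.81 and 8.25 FPKM at P7 (log2 fold change 1.85, SE 0.20, limma adjusted p = 0.00665). Il1a had 0.899 and 0.961 FPKM and then 6.65 and 6.77 FPKM, and Csf3, a granulocyte growth factor, 9.97 and 8.75 FPKM and then 36.6 FPKM in both libraries. The chemokine Ccl5 had 1.00 and 1.51 FPKM at P3 and 8.06 and 10.1 FPKM at P7. Feedback inhibitors of NF-kappaB rose beside them, with Nfkbia at 47.7 and 56.1 FPKM and then 129 and 147 FPKM, and Tnfaip3 at 5.23 and 7.53 FPKM and then 16.7 and 21.3 FPKM. In each of these genes both P7 libraries were above both P3 libraries. Tnf, Ccl5 and Nfkbia had been called lower at P1 against E18.5, with log2 fold changes of −2.63, −3.68 and −1.74.

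The nuclear pseudogenes Gm10222 (mm10 chr1:24612407-24612700) and Gm28439 (chr1:24611535-24612410), chosen after their values were seen, were listed at 2519 and 2105 FPKM and at 2567 and 2168 FPKM at P3, and at 1341 and 979 FPKM and at 1416 and 958 FPKM at P7. All 270 and all 852 of their 25-base stretches occur in the mitochondrial genes mt-Nd4l and mt-Nd4, which are listed at 0 in every library. Both were called lower (log2 fold changes −1.01 and −1.02, adjusted p = 0.0327 and 0.0433). Their FPKM was higher at earlier ages, with 5883 and 4635 for Gm10222 at E18.5.

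Of the 496 called genes, 27 were not protein-coding. Mhrt, a transcript antisense to the myosin heavy chain genes that was chosen after its values were seen, had 11.2 and 15.5 FPKM at P3 and 2.87 and 0.914 FPKM at P7 (log2 fold change −2.38, SE 0.44, adjusted p = 0.0235). The libraries do not mark strand, so its reads and those of overlapping Myh6 or Myh7 transcripts cannot be told apart.

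Large differences that were not called, chosen after their values were seen, include Ndufa4l2, a mitochondrial protein induced by low oxygen, with 2.69 and 3.92 FPKM at P3 and 29.2 and 45.4 FPKM at P7 (log2 fold change 3.13, SE 0.78, adjusted p = 0.0602), and the lactate transporter Slc16a3, with 17.8 and 21.4 FPKM and then 83.8 and 92.6 FPKM (log2 fold change 2.12, SE 0.65, adjusted p = 0.120). Both P7 libraries lay above both P3 libraries for each.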
